A study of Mus musculus with 12 samples.

Results

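The genes described here are 34 listed targets of PPARA and enzymes of fatty acid oxidation, of which 32 were measured among 19938 named genes. Each gene was represented by its probe set with 1 gene symbol and the highest mean over the 12 arrays. Ucp2, which encodes a mitochondrial uncoupling protein, and Acsl1, an acyl-CoA synthetase, had no such probe set in the annotation used and were not analysed here. The tissue was jejunum of males of the A/J strain and of C57BL/6J, called B6 here, with a labelled age of 8 weeks. It was taken 7 days after surgery, which was either ligation of the common bile duct (CBDL), which stops bile from reaching the gut, or a sham operation. The 4 groups were A/J CBDL, A/J sham, B6 CBDL and B6 sham, with 3 Affymetrix arrays in each. Both strains are inbred and carry no engineered allele, and the sham mice were opened and closed without dissection or ligation of the duct. All values are log2 signals, on which a difference of 1 is a doubling, and levels of different genes cannot be set against each other. Groups were compared with limma, and a gene was called at an adjusted p under 0.05 over all 35556 probe sets. The labels do not say that each array is a separate mouse, so p-values measure only the spread between these samples.

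PPARA is a nuclear receptor that is activated by fatty acids and binds DNA together with the retinoid X receptor. In liver and in the enterocytes of the small intestine, it turns on genes for the uptake, activation and breakdown of fatty acids when lipid is the main fuel. Long acyl chains enter mitochondria through the carnitine shuttle and are shortened there by β-oxidation, peroxisomes shorten the longest chains, and CYP4A enzymes of the endoplasmic reticulum begin ω-oxidation from the other end.

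Following CBDL, a subset of these genes rose in the jejunum and most did not pass the test. Averaged over both strains, 8 of the 32 genes were higher after CBDL, 1 was lower and 23 did not pass, where 1.12% of all probe sets were called higher and 0.616% lower. The genes that rose were Cyp4a14, Pdk4, Angptl4, Acot1, Cyp4a10, Acot2, Eci2 and Acaa2, and Acsf2 fell. Among named genes measured by the same rule, 1.45% were called higher and 0.963% lower. The median log2 fold change of the 32 genes was 0.00, against -0.02 over all named genes, and 16 of the 32 were above 0. Ppara itself and Cpt1a, the entry enzyme of mitochondrial oxidation, had fold changes near 1. The increases therefore were not shared across the list.

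**Figure D1:**
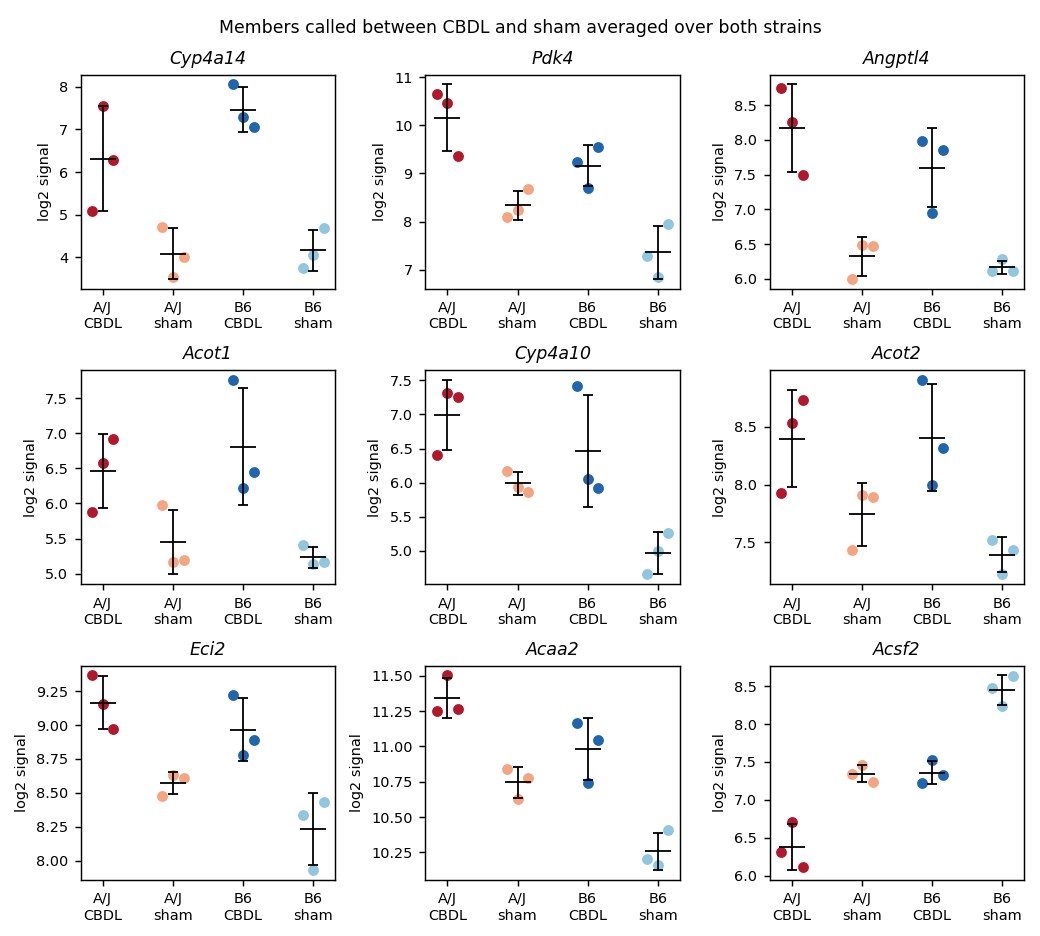
Log2 signal of the 9 called genes in each array (points), with the group mean and SD (bars, n = 3), for A/J CBDL, A/J sham, B6 CBDL and B6 sham. In 8 panels the CBDL points of B6 mice lie above the B6 sham points, and in the Acsf2 panel they lie below.

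The signals of hepatocyte markers also differed between the samples, and they are given here before those of the listed genes. Which cells made these transcripts was not tested. The mean log2 signal of 22 hepatocyte markers was 8.65, 9.12 and 8.72 in the A/J CBDL arrays and 5.44, 5.43 and 5.89 in the A/J sham arrays. In B6 mice it was 8.61, 8.91 and 8.76 in the CBDL arrays and 6.83, 7.40 and 8.78 in the sham arrays, so B6 sham replicate 3 lay within the CBDL range. Averaged over both strains, 18 of the 22 markers were called higher and 0 lower (19 at an unadjusted p under 0.05). Within A/J mice 17 were called higher, where 0.63% of all probe sets were. Within B6 mice 0 were called (13 at an unadjusted p under 0.05), with 20 above 0, 2 below 0 and a median log2 fold change of 1.13. Alb, which encodes albumin and is a defining marker, reached 12.15, 12.63 and 12.25 in A/J CBDL arrays, against 5.47, 5.31 and 8.44 in A/J sham arrays. No probe set of any kind was at 0 in any array, so the signals do not show whether a marker was absent. Hepatocytes express PPARA and most of its targets. With the marker mean as a covariate, 0 members were called over both strains, and standard errors were wider by a median factor of 2.76. Enterocyte markers, which define the labelled tissue, had a list mean of 12.2 to 12.5 in every array, and 1 of the 10 was called lower over both strains. In B6 mice, 9 had log2 fold changes below 0 and 5 (50%) were lower after CBDL without overlap, where 9.4% of named genes were. In A/J mice, 6 were below 0, and 3 (30%) were lower and 1 (10%) higher without overlap, where 11% and 8.11% of named genes were. In bulk RNA, fewer cells of a type and less RNA per cell cannot be told apart.

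The receptor and its coactivator came first in the pathway. Ppara had log2 signals of 8.22, 7.77 and 7.85 in A/J CBDL arrays and 8.03, 7.96 and 8.41 in A/J sham arrays. In B6 mice, it had 7.78, 7.89 and 7.94 in CBDL arrays and 7.53, 7.91 and 7.88 in sham arrays. The groups overlapped in both strains, and the log2 fold change over both strains was -0.05, with a 95% confidence interval of -0.29 to 0.20. Ppargc1a encodes PGC-1α, a coactivator of PPARA that also drives mitochondrial biogenesis. Its log2 signals were 8.51, 8.48 and 8.20 in A/J CBDL arrays, 8.35, 8.84 and 8.79 in A/J sham arrays, 8.44, 8.71 and 8.53 in B6 CBDL arrays and 8.78, 8.61 and 9.03 in B6 sham arrays. The log2 fold change was -0.26 (limma adjusted p = 0.334), and a further probe set of the gene had -0.24.

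Among the 8 measured classical targets, 4 rose over both strains and 4 did not pass. Pdk4 encodes pyruvate dehydrogenase kinase 4, which slows the entry of glucose carbon into the citric acid cycle when fatty acids are burned. Its log2 signals were 10.64, 10.47 and 9.36 in A/J CBDL arrays and 8.10, 8.25 and 8.68 in A/J sham arrays. In B6 mice they were 9.25, 8.70 and 9.54 in CBDL arrays and 7.28, 6.86 and 7.94 in sham arrays. Every CBDL array was above every sham array of its strain. Pdk4 rose by 1.81 on the log2 scale, or 3.51-fold (SE 0.26, limma adjusted p = 0.00742, 6 CBDL and 6 sham arrays). Within a strain, its log2 fold changes were 1.82 in A/J mice (adjusted p = 0.0519) and 1.80 in B6 mice (adjusted p = 0.126), both short of the threshold.

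Angptl4 encodes a secreted inhibitor of lipoprotein lipase that is induced by fatty acids. Its log2 signals were 8.75, 8.25 and 7.49 in A/J CBDL arrays, against 6.0, 6.49 and 6.48 in A/J sham arrays. In B6 mice they were 7.99, 6.94 and 7.86 in CBDL arrays, against 6.11, 6.28 and 6.12 in sham arrays. The groups did not overlap in either strain. Angptl4 rose by 1.63 over both strains, or 3.10-fold (SE 0.23, limma adjusted p = 0.00655), and by 1.84 in A/J mice (SE 0.32, adjusted p = 0.0276). The A/J call was lost, with adjusted p up to 0.107, without A/J CBDL replicate 1 or 2 or A/J sham replicate 1 or 2. In B6 mice, the log2 fold change was 1.43 (adjusted p = 0.177).

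Cyp4a10 and Cyp4a14 encode ω-hydroxylases of fatty acids and are among the most inducible PPARA targets of mouse liver. Cyp4a14 had log2 signals of 5.09, 7.55 and 6.28 in A/J CBDL arrays and 4.71, 3.53 and 4.02 in A/J sham arrays. The B6 values were 8.06, 7.28 and 7.06 in CBDL arrays and 3.75, 4.06 and 4.70 in sham arrays. The 3 A/J CBDL arrays were spread widely, and the lowest of them was only slightly above the highest A/J sham array. Cyp4a14 rose by 2.76 over both strains, or 6.77-fold (SE 0.38, 95% confidence interval 1.91 to 3.60, limma adjusted p = 0.00655). Its log2 fold change of 3.30 in B6 mice was the highest of all 19938 named genes in that comparison, yet it did not pass (adjusted p = 0.0686), and in A/J mice it was 2.22 (adjusted p = 0.0957). Cyp4a10 had log2 signals of 6.40, 7.32 and 7.26 in A/J CBDL arrays and 6.17, 5.94 and 5.86 in A/J sham arrays. In B6 mice, Cyp4a10 had 7.41, 6.06 and 5.91 in CBDL arrays and 4.65, 5.0 and 5.27 in sham arrays, without overlap. It rose by 1.25, or 2.38-fold (SE 0.26, limma adjusted p = 0.0397). The Cyp4a genes are alike in sequence, so the assignment of signal to 1 of them is uncertain, above all for Cyp4a10, Cyp4a31 and Cyp4a32. A probe set that the annotation assigns to Cyp4a10, Cyp4a31 and Cyp4a32 together had a log2 fold change of 1.62 (SE 0.25, adjusted p = 0.0106).

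The other classical targets did not move with these 4. Plin2, which encodes a coat protein of lipid droplets, had a log2 fold change of -0.24 over both strains (limma adjusted p = 0.320). Vnn1, a pantetheinase, had -0.23 with a 95% confidence interval of -0.69 to 0.24. Ucp3, a mitochondrial carrier best known in muscle, had -0.06. Fgf21 encodes a fasting hormone made mainly by the liver. Its log2 signals ranged between 4.40 and 4.73 over all 12 arrays, and its log2 fold change was -0.04 (95% confidence interval -0.20 to 0.12). These signals were below the median of every array and close to 4.21, the level below which the 30% dimmest probe sets lay. Whether so dim a probe set could show a change was not tested.

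PPARA and the retinoid X receptor bind a direct repeat of the half-site AGGTCA spaced by 1 base (DR1). This motif, AGGTCANAGGTCA, was searched on both strands in RefSeq promoter windows (GRCm38.p6), from 250 bases before to 50 after the start. Windows were given for 28 of the 34 genes, 31 windows in all, and Angptl4, Cyp4a10, Cyp4a14, Acaa2, Decr1 and Vnn1 had none in that table. An exact DR1 was found in 0 of the 31 windows, against 0.0396% of all 32851 windows. With up to 2 mismatches, 3 of 31 windows (9.68%) had a match, against 3.86% of all windows. Those belonged to Plin2, Ucp3 and Slc25a20, none of them called. The half-site alone, AGGTCA or its complement TGACCT, which also lies within the DR1, was in 22.6% of member windows and 16.3% of all windows. The 250 bases before the start are shown 5′ to 3′ on the gene's strand for Pdk4 (chr6:5496279-5496528, minus strand), the called gene with the largest change among those that have a window. Plin2 (chr4:86670060-86670309, minus strand) and Ucp3 (chr7:100472741-100472990, plus strand) are shown beside it as targets with a match that were not called, and capitals mark the DR1 match and any half-site.
Pdk4: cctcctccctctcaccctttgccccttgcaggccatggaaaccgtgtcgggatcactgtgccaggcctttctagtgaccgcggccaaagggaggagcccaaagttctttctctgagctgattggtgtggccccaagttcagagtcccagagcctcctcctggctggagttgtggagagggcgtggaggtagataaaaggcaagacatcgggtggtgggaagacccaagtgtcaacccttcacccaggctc
Plin2: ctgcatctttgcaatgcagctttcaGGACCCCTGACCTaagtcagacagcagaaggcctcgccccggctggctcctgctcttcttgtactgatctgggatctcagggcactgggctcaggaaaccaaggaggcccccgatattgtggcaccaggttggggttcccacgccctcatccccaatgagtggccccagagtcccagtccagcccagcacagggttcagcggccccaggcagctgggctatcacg
Ucp3: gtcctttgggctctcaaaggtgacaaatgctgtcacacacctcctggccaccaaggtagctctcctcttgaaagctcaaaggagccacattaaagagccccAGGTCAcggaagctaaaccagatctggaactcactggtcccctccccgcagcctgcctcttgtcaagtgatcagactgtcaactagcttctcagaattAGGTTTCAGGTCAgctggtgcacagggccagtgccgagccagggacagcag
The Pdk4 stretch held neither motif. The Plin2 match, read on the opposite strand as AGGTCAGGGGTCC, began at position -225 from the start. The Ucp3 match, AGGTTTCAGGTCA, began at position -51, and Ucp3 had a further half-site upstream. A match is a description of the letters in this window and not a binding site.

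The carnitine shuttle carries long acyl chains across the inner mitochondrial membrane, and 0 of its 3 genes were called (0 at an unadjusted p under 0.05). Cpt1a encodes carnitine palmitoyltransferase 1A, which sets the rate of this step. It had log2 signals of 8.94, 9.36 and 9.37 in A/J CBDL arrays, 9.22, 9.17 and 9.41 in A/J sham arrays, 9.46, 9.12 and 9.15 in B6 CBDL arrays and 9.10, 8.82 and 9.16 in B6 sham arrays. The groups overlapped in both strains. The log2 fold change of Cpt1a over both strains was 0.08, with a 95% confidence interval of -0.15 to 0.32, which leaves out a 1.5-fold change in either direction. Slc25a20, the carnitine-acylcarnitine carrier, had 0.29 (limma adjusted p = 0.375), and Cpt2, which restores the acyl-CoA inside, had -0.03 (95% confidence interval -0.17 to 0.11).

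Of the 10 enzymes of mitochondrial β-oxidation, 1 rose and 9 did not pass. Acaa2 encodes the thiolase that cleaves off acetyl-CoA in the last step. It had log2 signals of 11.25, 11.50 and 11.27 in A/J CBDL arrays and 10.84, 10.62 and 10.78 in A/J sham arrays. B6 arrays gave 11.17, 10.74 and 11.04 in CBDL arrays and 10.20, 10.16 and 10.41 in sham arrays. All CBDL arrays of Acaa2 were above the sham arrays of their strain, and the gene rose by 0.66, or 1.58-fold (SE 0.09, limma adjusted p = 0.00635). Its log2 fold change was 0.59 in A/J mice and 0.73 in B6 mice (adjusted p = 0.0662 and 0.0852).

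The enzymes that act before the thiolase gave smaller values. Acadl, the long-chain acyl-CoA dehydrogenase, had log2 signals of 10.15, 10.26 and 10.31 in A/J CBDL arrays and 10.05, 10.04 and 10.17 in A/J sham arrays. B6 arrays gave 10.29, 10.07 and 9.98 in CBDL arrays and 9.68, 9.25 and 9.64 in sham arrays. The groups were apart in B6 mice only, and the log2 fold change over both strains was 0.37 (limma adjusted p = 0.0720). Acadm, the medium-chain dehydrogenase and a textbook PPARA target, had -0.02 (95% confidence interval -0.16 to 0.13). The short-chain and very-long-chain dehydrogenases Acads and Acadvl, both subunits of the trifunctional protein (Hadha and Hadhb) and the isomerase Eci1 ranged between -0.10 and 0.07. Decr1, the dienoyl-CoA reductase for unsaturated chains, had -0.29 (adjusted p = 0.140), and Hadh, the short-chain hydroxyacyl-CoA dehydrogenase, had -0.16 (adjusted p = 0.221).

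**Figure D2:**
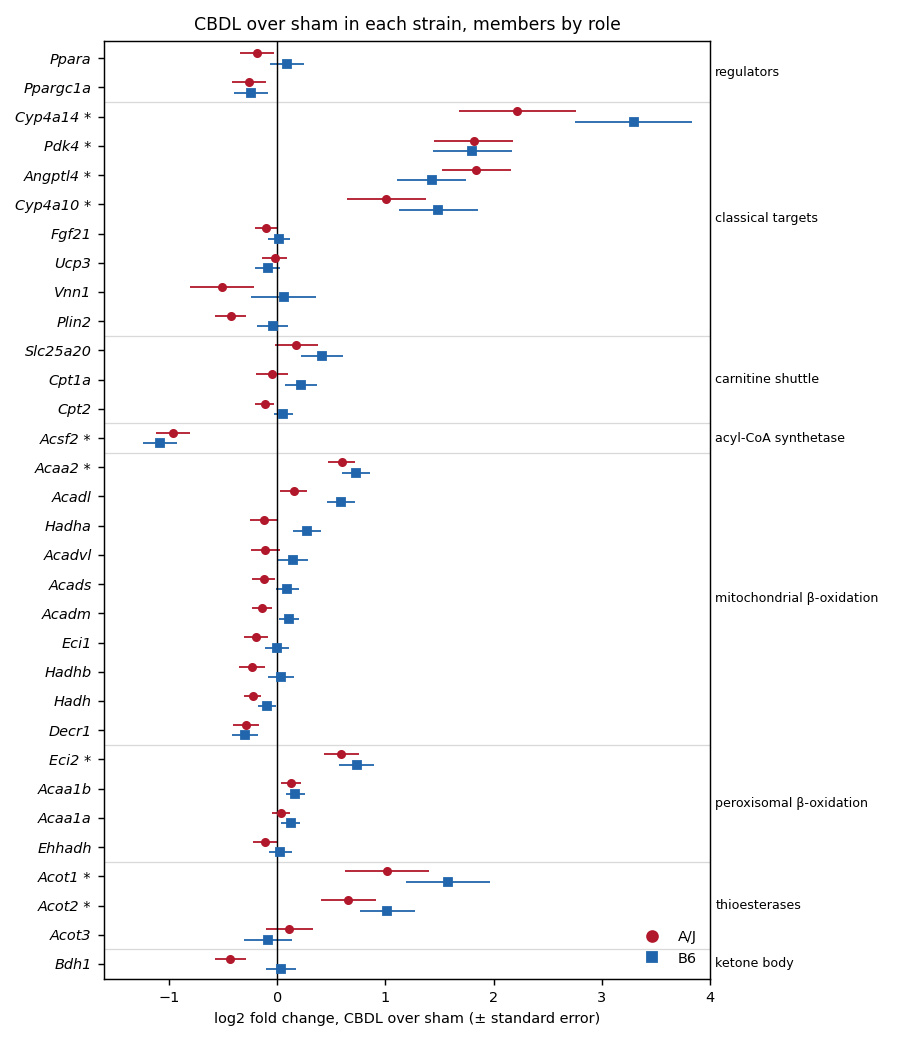
Log2 fold change of CBDL over sham for each of the 32 genes in A/J mice (circles) and B6 mice (squares), with standard errors, grouped by role; asterisks mark the 9 genes called over both strains. Cyp4a14 reaches 2.22 and 3.30, and Acsf2 is the 1 gene below -0.90 in both strains.

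In peroxisomes, Eci2 rose and the other 3 measured enzymes did not pass. Eci2 encodes an enoyl-CoA isomerase that prepares unsaturated chains for β-oxidation. Its log2 signals were 9.37, 9.15 and 8.97 in A/J CBDL arrays and 8.48, 8.63 and 8.61 in A/J sham arrays. In B6 mice, they were 9.22, 8.78 and 8.89 in CBDL arrays and 8.33, 7.93 and 8.43 in sham arrays, and neither strain had overlapping groups. Eci2 rose by 0.66, or 1.58-fold (SE 0.11, limma adjusted p = 0.0159). Ehhadh, the bifunctional enzyme and one of the best known targets of PPARA in rodent liver, had a log2 fold change of -0.04 (95% confidence interval -0.21 to 0.12). The peroxisomal thiolases Acaa1a and Acaa1b had 0.08 and 0.15.

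Acyl-CoA thioesterases release free fatty acids from coenzyme A, in the cytosol for Acot1 and in mitochondria for Acot2. Acot1 had log2 signals of 5.88, 6.58 and 6.92 in A/J CBDL arrays and 5.97, 5.17 and 5.20 in A/J sham arrays. The B6 signals were 7.76, 6.22 and 6.45 in CBDL arrays and 5.41, 5.14 and 5.16 in sham arrays. The groups overlapped in A/J mice and not in B6 mice. Acot1 rose by 1.30 over both strains, or 2.45-fold (SE 0.28, limma adjusted p = 0.0436). For Acot2, the log2 signals were 7.92, 8.54 and 8.73 in A/J CBDL arrays, 7.43, 7.91 and 7.89 in A/J sham arrays, 8.91, 7.99 and 8.31 in B6 CBDL arrays and 7.52, 7.22 and 7.43 in B6 sham arrays. B6 CBDL replicate 1 was the highest array of its group for both genes. Acot2 rose by 0.84, or 1.78-fold (SE 0.18, limma adjusted p = 0.0452). The calls of Acot1, Acot2 and Cyp4a10 were close to the threshold and did not hold. Acot1 lost its call without any of 8 of the 12 arrays (up to an adjusted p of 0.117), Acot2 for any of 10 (up to 0.112) and Cyp4a10 for any of 9 (up to 0.103). Acot3, a peroxisomal paralog, had a log2 fold change of 0.01 and was the 1 listed gene among the 30% dimmest probe sets. Since these paralogs are alike in sequence, signal may be shared between them.

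Acsf2, which encodes a mitochondrial acyl-CoA synthetase, was the 1 gene on the list that fell. Its log2 signals were 6.32, 6.71 and 6.11 in A/J CBDL arrays and 7.34, 7.46 and 7.24 in A/J sham arrays. In B6 mice they were 7.23, 7.52 and 7.33 in CBDL arrays and 8.47, 8.24 and 8.63 in sham arrays. CBDL arrays were below sham arrays in both strains without overlap, and A/J arrays were below B6 arrays at either operation. Acsf2 decreased by 1.03 over both strains (SE 0.11, limma adjusted p = 0.00191), which leaves 0.491 of the sham level. In the main fit, it was the 1 member called in each strain by itself, where 0.0366% of all probe sets were called in both strains. The study's own list of differentially expressed genes has Pdk4, Cyp4a14 and Acaa2 besides Acsf2 in both strains. Further members were also called within each strain among probe sets with exactly 1 symbol, as given below. Acsf2 had -0.97 in A/J mice (SE 0.16, adjusted p = 0.0180) and -1.09 in B6 mice (SE 0.16, adjusted p = 0.0499). The A/J call was lost, with adjusted p up to 0.0916, without A/J CBDL replicate 1 or 3 or A/J sham replicate 1 or 2, and the B6 call without any of 11 of the 12 arrays (up to 0.203). A second probe set of Acsf2 gave -1.03 over both strains (adjusted p = 0.0011). Bdh1, the mitochondrial enzyme that interconverts the ketone bodies, had -0.20 (adjusted p = 0.400). Acsl1, the acyl-CoA synthetase not analysed here, is listed by the study as higher after CBDL in A/J mice.

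**Figure D3:**
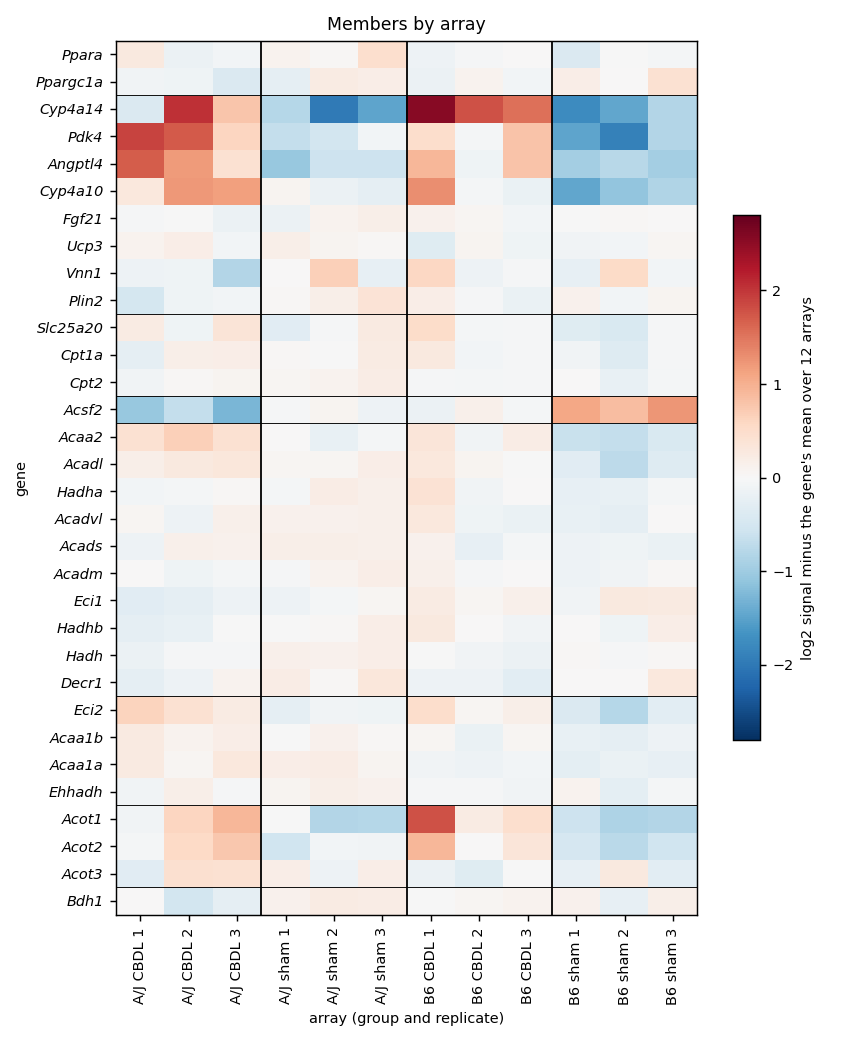
Log2 signal of each gene minus its own mean over the 12 arrays (color, red above and blue below), with 1 column per array by group and 1 row per gene by role. Pdk4, Angptl4, Cyp4a10, Cyp4a14 and Acot1 show the widest swings, with most of their CBDL columns red, while rows such as Acadm and Ehhadh are nearly even.

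Within A/J mice, 1 of the 32 genes was called higher (Angptl4) and 1 lower (Acsf2), where 0.63% of all probe sets were called higher and 0.188% lower. At an unadjusted p under 0.05 were 13 of the 32, against 2854 of the 19938 named genes. Among probe sets with exactly 1 symbol or with array weights, 4 of the genes were called higher and 1 lower. Over all probe sets, 565 of 21789 and 1299 of 35556 were called in these settings in either direction, against 291 of 35556 in the main fit. The median log2 fold change was -0.11, against -0.03 over all named genes. For 7 genes all 3 CBDL arrays were above all 3 sham arrays, and for 7 they were below, which is 21.9% each, where 8.11% of named genes were above and 11% below. The 7 above were Pdk4, Angptl4, Cyp4a10, Cyp4a14, Acaa2, Eci2 and Acot2. The 7 below were Acsf2, Plin2, Acads, Hadh, Hadhb, Eci1 and Bdh1, so 4 of them were β-oxidation enzymes with log2 fold changes between -0.23 and -0.12.

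In B6 mice, 0 genes were called higher and 1 lower (Acsf2), where 0.0366% of all probe sets were called higher and 0.0169% lower. At an unadjusted p under 0.05 were 11 of the 32 genes, against 1758 of the 19938 named genes. Among probe sets with exactly 1 symbol, 6 of the genes were called higher and 1 lower in B6 mice, and with array weights 2 were called higher and 1 lower. Over all probe sets, 163 of 21789 and 167 of 35556 were called in these settings in either direction, against 19 of 35556 in the main fit. The median log2 fold change was 0.10, against -0.01 over all named genes, and 24 of the 32 were above 0. For 10 genes the B6 groups did not overlap with CBDL above, or 31.2%, where 8.15% of named genes did so. These were the 8 genes that rose over both strains, with Acadl and Acaa1a. For 2 genes, Acsf2 and Decr1, CBDL was below without overlap, or 6.25%, where 9.4% of named genes were. B6 CBDL replicate 1 was the highest array of its group for 22 of the 32 genes, and B6 sham replicate 3 was the highest of its group for 18.

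B6 sham replicate 3 had the hepatocyte marker level of a CBDL array, and its values for the listed genes were set against the B6 CBDL arrays. For all 8 of the genes that rose, this array was below every B6 CBDL array. The mean of the B6 CBDL arrays exceeded it by 2.77 for Cyp4a14, 1.65 for Acot1, 1.48 for Angptl4 and 1.22 for Pdk4 on the log2 scale. The differences were 1.20 for Cyp4a10, 0.97 for Acot2, 0.58 for Acaa2 and 0.54 for Eci2. Against the mean of the other B6 sham arrays, the differences were 3.56 for Cyp4a14, 1.54 for Acot1, 1.40 for Angptl4 and 2.10 for Pdk4. They were 1.64 for Cyp4a10, 1.04 for Acot2, 0.80 for Acaa2 and 0.83 for Eci2. The 8 genes were called with this array among the sham arrays, so its place below the CBDL arrays was partly set by that choice. Its values rest on 1 array and have no test. With the marker mean as a covariate, log2 fold changes over both strains were 1.44 for Cyp4a14 (SE 0.96) and 1.76 for Angptl4 (SE 0.63). They were 0.86 for Pdk4 (SE 0.64) and -1.37 for Acsf2 (SE 0.29), and 0 members were called. Without the covariate these values were 2.76, 1.63, 1.81 and -1.03 in that order. The marker mean was higher in every A/J CBDL array than in every A/J sham array, so covariate and CBDL were confounded in A/J mice. Adipocyte and muscle cells also use some of these genes, such as Angptl4 and Pdk4. In A/J mice all 8 smooth muscle markers had log2 fold changes above 0 after CBDL, with a median of 0.26 and 0 called (0 at an unadjusted p under 0.05). Their mean log2 signal ran from 6.77 to 8.65 between the A/J sham arrays. In B6 mice all 8 were lower after CBDL without overlap, where 9.4% of named genes were, with a median of -1.37 and 0 called (8 at an unadjusted p under 0.05). Of 7 adipocyte markers, 5 were below 0 in A/J mice, with a median of -0.17 and 0 called (0 at an unadjusted p under 0.05), and 7 were below 0 in B6 mice, with a median of -0.49 and 0 called (5 at an unadjusted p under 0.05). Their part in the values of the listed genes was not tested.

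**Figure D4:**
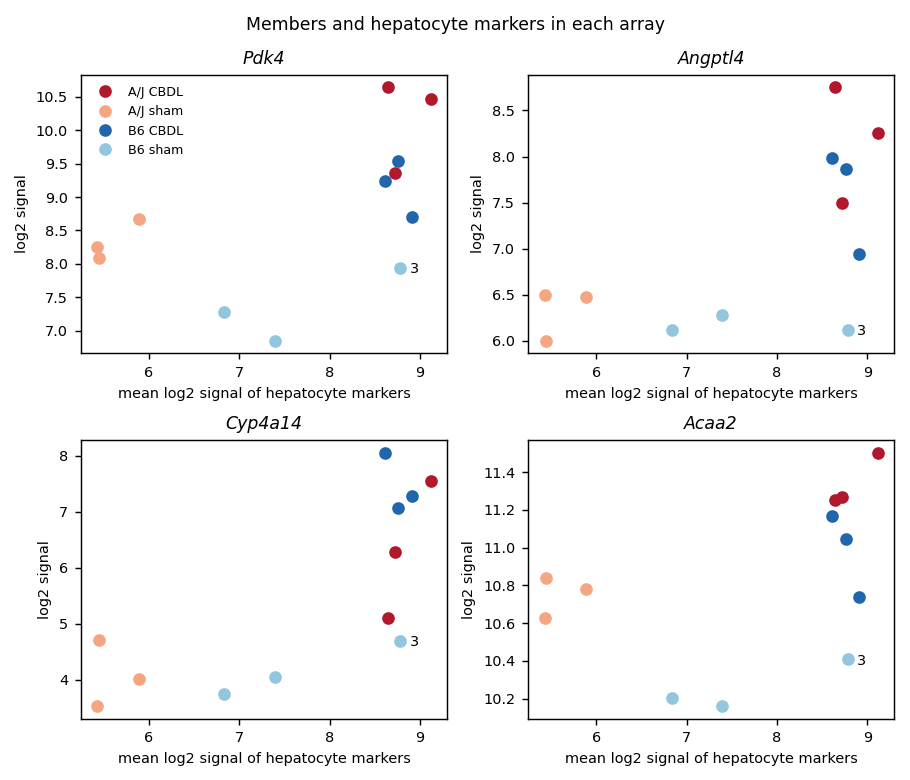
Log2 signal of Pdk4, Angptl4, Cyp4a14 and Acaa2 in each array (vertical axis) against the mean log2 signal of 22 hepatocyte markers (horizontal axis), with points colored by group and B6 sham replicate 3 marked 3. That array lies at 8.78 on the horizontal axis among the CBDL arrays and below the B6 CBDL arrays in each panel.

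The response to CBDL was set against strain with the interaction term. Of the 32 genes, 0 were called (2 at an unadjusted p under 0.05), and 0.0366% of all probe sets were called. Those 2 were Acadl, with -0.44 (unadjusted p = 0.0314), and Bdh1, with -0.47 (unadjusted p = 0.0381), both meaning a smaller value of CBDL over sham in A/J mice. For Cyp4a14 the A/J response was below the B6 response by 1.08 on the log2 scale, and for Angptl4 it was 0.42 above, neither of them called. In 26 of the 32 genes the interaction was below 0, with a median of -0.21, against -0.02 over all named genes. For smooth muscle markers it was above 0 in 8 of 8, with a median of 1.62. Calls in A/J mice that B6 mice lack are therefore not shown to be a difference between the strains.

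Between the strains, A/J sham mice had higher signals than B6 sham mice for most of the list. Log2 differences were above 0 for 28 of the 32 genes, with a median of 0.20, against 0.04 over all named genes. For 13 genes (40.6%) all A/J sham arrays were above all B6 sham arrays, where 11.2% of named genes were, and for 1 (Acsf2) they were below, or 3.12%, where 8.67% of named genes were. The 13 include Ppara, Pdk4, Cyp4a10, Cpt1a, Cpt2 and 5 enzymes of mitochondrial β-oxidation. The test called 1 gene higher and 1 lower, where 0.579% of all probe sets were called higher and 1.29% lower. Acaa1a had log2 signals of 9.09, 9.11 and 8.99 in A/J sham arrays and 8.62, 8.72 and 8.68 in B6 sham arrays, a difference of 0.39 (SE 0.09, limma adjusted p = 0.0475), and the call was lost without any of 10 of the 12 arrays (adjusted p up to 0.173). Acsf2 was lower in A/J sham mice by a log2 difference of -1.10 (SE 0.16, adjusted p = 0.00511). The hepatocyte marker mean was lower in the A/J sham arrays than in the B6 sham arrays, as given above. With that mean as a covariate, 0 of the 32 genes were called, the median difference was 0.30 and standard errors were 2.03 times as wide in the median.

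After CBDL, the genes of the list lay on both sides of the strain comparison. Log2 differences of A/J CBDL over B6 CBDL were above 0 for 18 of the 32 genes, with a median of 0.01, against 0.03 over all named genes. The median was below 0 without A/J CBDL replicate 3 (-0.03), B6 CBDL replicate 2 (-0.02) or B6 CBDL replicate 3 (-0.04). Cyp4a14 had a log2 difference of -1.15 here and -0.08 in sham mice, while Pdk4 had 0.99 here and 0.98 in sham mice, none of them called. All 8 smooth muscle markers were higher in the A/J CBDL arrays than in the B6 CBDL arrays without overlap, where 12.6% of named genes were. Their median was 0.98 and 0 were called (4 at an unadjusted p under 0.05), and their part in these values was not tested. Acsf2 was called lower in A/J CBDL mice (-0.98, SE 0.16, limma adjusted p = 0.00935, and 0.0546 without B6 CBDL replicate 2) and 0 genes were called higher (6 of the 32 passed an unadjusted p of 0.05, against 3038 of the 19938 named genes), where 1.22% of all probe sets were called lower and 0.562% higher. For 3 genes, Acaa2, Acaa1a and Acaa1b, all A/J CBDL arrays were above all B6 CBDL arrays, or 9.38%, where 12.6% of named genes were. For Acsf2 and Eci1 they were below, or 6.25%, where 11.4% of named genes were. Both shares were below those of named genes. Acaa2, Acaa1a and Acaa1b encode thiolases, and none was called here (limma adjusted p = 0.232, 0.127 and 0.338). The sham groups and the CBDL groups of these contrasts also enter the comparisons of CBDL with sham, so the contrasts are not independent of each other.

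Around the list, 110 of 120 further genes of fatty acid metabolism were measured. Averaged over both strains, 8 of the 110 were higher after CBDL, 3 were lower and 99 did not pass, where the shares over all probe sets were 1.12% and 0.616%. The median log2 fold change was 0.03. Over both strains, 18 of the 22 hepatocyte markers were called higher too, and their part in the values of these further genes was not tested. Among 9 genes of ω-oxidation, Cyp4a31, Cyp4b1 and Cyp4f15 rose and Cyp4f16 fell. Cyp4b1, which hydroxylates medium-chain fatty acids and foreign compounds, had log2 signals of 10.13, 10.32 and 9.92 in A/J CBDL arrays and 8.32, 9.02 and 8.96 in A/J sham arrays. In B6 mice it had 9.99, 10.08 and 10.21 in CBDL arrays and 9.24, 9.29 and 9.24 in sham arrays. It rose by 1.10 over both strains (SE 0.12, limma adjusted p = 0.00193) and by 1.36 in A/J mice (adjusted p = 0.00678), with no overlap in either strain. Cyp4a31, whose signal may be shared with Cyp4a10, rose by 1.44 (adjusted p = 0.0170). Cyp4f15 rose by 0.48 (adjusted p = 0.0225), and Cyp4f16 had a log2 fold change of -0.96 (adjusted p = 0.0499).

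Of 22 peroxisomal genes, 2 rose and 1 fell. Pex11a, a peroxisome proliferation factor and a known PPARA target, rose by 0.75 (SE 0.13, limma adjusted p = 0.0200). Acox2, the oxidase of branched chains and bile acid intermediates, rose by 1.14 (SE 0.24, adjusted p = 0.0397), while Acox3, an oxidase of the same family, decreased by 0.39 (SE 0.07, adjusted p = 0.0221). Ppard, the related receptor that many of the same genes answer to, decreased by 0.71 (SE 0.15, adjusted p = 0.0475) and was the 1 called gene of 9 nuclear receptors and partners. Pck1, which encodes the cytosolic PEP carboxykinase of gluconeogenesis, rose by 1.21 (adjusted p = 0.0232), and Cyp8b1, the sterol 12α-hydroxylase of bile acid synthesis, by 0.63 (adjusted p = 0.0117). Dbi, an acyl-CoA binding protein, rose by 0.27 (adjusted p = 0.0473). Of the 22 further mitochondrial genes, 0 were called (4 at an unadjusted p under 0.05), and of 18 lipid droplet genes, 0 were called (5 at an unadjusted p under 0.05).

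**Figure D5:**
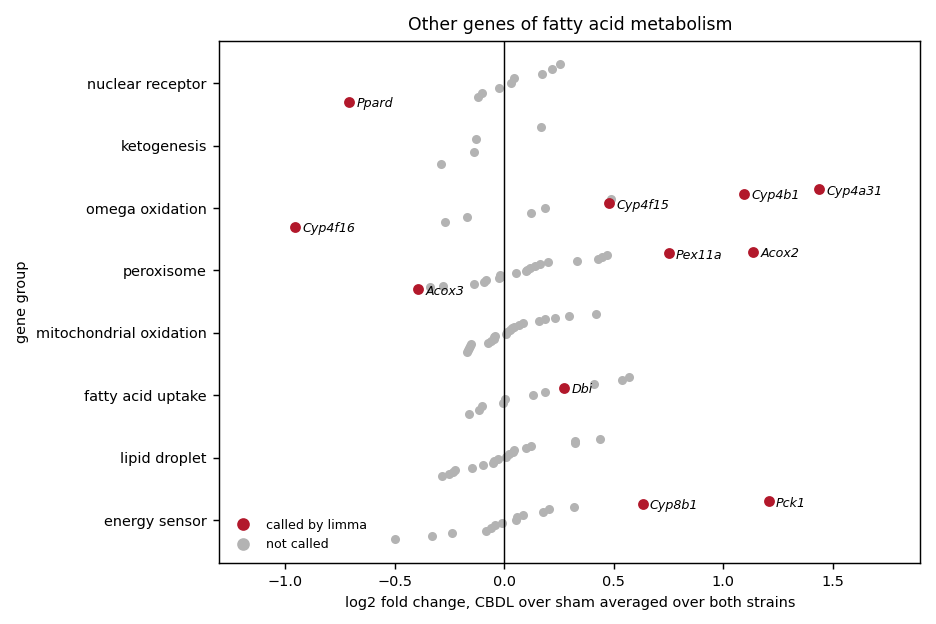
Log2 fold change of CBDL over sham averaged over both strains (horizontal axis) for the 110 measured further genes, in rows by group; red points with names were called by limma and gray points were not. The called genes run from Cyp4f16 at -0.96 to Cyp4a31 at 1.44, and the mitochondrial oxidation row holds no red point.

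Between A/J sham and B6 sham mice, 3 of the 110 further genes were called higher and 0 lower, where 0.579% and 1.29% of all probe sets were. Between A/J CBDL and B6 CBDL mice, 3 were called higher and 3 lower, where 0.562% and 1.22% were. Acad10, an acyl-CoA dehydrogenase family member, exceeded its B6 sham level in A/J sham mice by a log2 difference of 1.20 (limma adjusted p = 0.000217), and by 0.77 in A/J CBDL over B6 CBDL mice (adjusted p = 0.00318). Cat, which encodes the peroxisomal catalase, was higher by 0.49 in sham mice (adjusted p = 0.0380) and by 0.54 in CBDL mice (adjusted p = 0.0254). In sham mice Acox3 was also called higher in A/J (0.49, adjusted p = 0.0334). In CBDL mice Acsm3, a medium-chain acyl-CoA synthetase, was higher in A/J (log2 difference 0.97, adjusted p = 0.0255). Acat1, the thiolase of acetoacetyl-CoA, was lower there (-0.49, adjusted p = 0.0160), as were Slc16a1, a carrier of lactate and ketone bodies (-0.47, adjusted p = 0.0312), and Cyp4f14, a further ω-hydroxylase (-0.68, adjusted p = 0.00342). In A/J CBDL over A/J sham mice, Cyp8b1 had 0.74 (adjusted p = 0.0374) and Acox3 -0.59 (adjusted p = 0.0259). Lpin1, a phosphatidate phosphatase and coactivator of PPARA, rose by 0.55 in A/J CBDL over A/J sham mice (adjusted p = 0.0496), where its log2 fold change over both strains was 0.32 (adjusted p = 0.0732).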

How the data were processed

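Total RNA of jejunum was measured on 12 Affymetrix arrays, 3 per group. The authors deposited log2 signals of 35556 probe sets. Per the labels these come from the Expression Console of Affymetrix, run with RMA, whereas the study's methods name GCRMA and a different array, and no source used here gives a version. The log2 values were used as deposited. They lay between 1.57 and 14.4, medians of single arrays between 5.36 and 5.51, and precision is limited by the number of arrays.

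Gene symbols came from the platform annotation: 21789 probe sets had 1 symbol, 1621 several and 12146 none. Members and lists were chosen with earlier results of these data known. Every listed member was described, with values by array for called members and for Ppara, Ppargc1a, Cpt1a and Fgf21 (here a range), and of the further genes those called. Acadl was added to the genes given by array after its values were seen. A linear model that gives each group its own mean was fitted to the arrays together (limma 3.58.1, R 4.3.3, lmFit and eBayes), and p-values were adjusted by Benjamini-Hochberg over all probe sets in each of 6 comparisons. Confidence intervals are 95% limits from that model and are not adjusted. The A/J comparison was also run on simulated data with known changes.

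Alternatives were a fit to the 6 arrays of a comparison alone, removal of the 30% dimmest probe sets, probe sets with exactly 1 symbol, quantile normalization, subtraction of array medians, weights for arrays, the mean of all probe sets of a gene in place of the brightest, the replicate number as a block, the hepatocyte marker mean as a covariate and each array left out in turn.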

Additional observations from a re-analysis of the deposited data

How the results depend on the processing

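Averaged over both strains, 9 genes were called, and the count was 10 with exactly 1 symbol and 10 with array weights. It was 0 with the hepatocyte marker mean as a covariate (with standard errors a median of 2.76 times as wide) and 6 to 9 with single arrays left out. There the calls of Cyp4a14, Pdk4, Angptl4, Acaa2, Eci2 and Acsf2 were kept without each array in turn, at adjusted p up to 0.0445, while Cyp4a10 lost its call without any of 9 arrays, Acot1 without any of 8 and Acot2 without any of 10. In A/J mice, the count of 2 was 0 in a fit to its 6 arrays alone, 4 with the 30% dimmest probe sets removed and 5 with exactly 1 symbol. It was 3 with quantile normalization, 5 with array weights, 0 with the covariate and 0 to 3 with single arrays left out. In B6 mice, the count of 1 was 0 in a fit to its 6 arrays alone, 2 without the dimmest probe sets, 7 with exactly 1 symbol (6 higher), 0 with medians subtracted, 3 with array weights, 0 with the covariate and 0 to 2 with single arrays left out. Between A/J sham and B6 sham mice, the count of 2 was 1 with only the 6 arrays, 3 without the dimmest probe sets and 3 with exactly 1 symbol. It was 3 with quantile normalization, with medians subtracted or with array weights, 0 with the covariate and 1 to 2 with single arrays left out. Between A/J CBDL and B6 CBDL mice, the count of 1 was 2 with array weights and 0 to 1 with single arrays left out, 0 without B6 CBDL replicate 2. The interaction had 0 calls in every setting run. Calls over all probe sets changed as well, with array weights from 291 to 1299 in A/J mice and from 19 to 167 in B6 mice. Fewer probe sets are tested where only 1 symbol is kept or the dimmest are dropped, and the cause of the other changes was not tested.

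The deviations of same-numbered arrays had correlations of -0.312 to 0.358. Between the sham groups all 3 were above 0 (0.12, 0.0252 and 0.358), but not every pair was above 0.1, so the numbers were not taken to pair samples. With the replicate number as a block, the counts were 6 over both strains, 1 in A/J mice, 0 in B6 mice, 1 between the sham groups, 1 between the CBDL groups and 0 for the interaction. The log2 fold changes of the called genes kept their sign in each setting run for them, while the median of the listed genes, which lay close to 0 over both strains and between the CBDL groups, did not (0.02 over both strains with array weights). With 3 arrays per group, changes under the widths of the intervals given could not be detected, and whether a dim probe set was above background was not measured.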
